A study of Mus musculus with 90 samples.

Results

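Arg1, Mmp12, Atp6v0d2, Cd14, Gpnmb, Nos2 and Spp1 are genes of macrophages that take up lipid, break down matrix or metabolise arginine, and their transcripts were followed here in 90 subcutaneous melanoma allografts in mice. The 7 genes were chosen by their measured levels on these same arrays, the leading ones for their height in the tumours that held their volume under treatment. Their levels in those tumours are therefore given as a description, without a test. Spp1 was skipped and is not analysed here, which left 6 of 7 genes among the 18193 genes measured.

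All 90 tumours carried an Hgf transgene and the R24C allele of Cdk4 on both chromosomes, in mice of the strain B6.cBrd. The promoter that drives the transgene and the ages of the mice are not given in the sources used here. Controls received PBS (7 tumours, 10 ml/kg) or mouse control IgG (22 tumours, 10 mg/kg). All other mice received 10 mg/kg of an antibody against mouse PD-L1, an mIgG1 carrying D265A. Responder tumours (27) were taken after 2 to 12 doses, once they had lost at least 5% of their volume. NonResponder tumours (23) kept growing under the antibody and were collected at comparable times. Relapse tumours (6) regressed until they could not be measured, then regrew after 4 to 10 doses. GrowthDelay tumours (2) arose only after the antibody had been given. Stabilization tumours (3) were set apart within the Responder group and showed no volume change between consecutive measurements. Whether each array comes from its own mouse is not stated, and p-values therefore rest on the spread among these arrays, which may in part be technical.

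Macrophages of tumours can store lipid, and such cells are known for lysosomal and matrix-degrading genes. Arg1 and Nos2 encode enzymes that use the same substrate: arginase 1 cuts arginine into ornithine and urea, and inducible nitric oxide synthase turns it into nitric oxide. The classical view sets them apart as marks of opposed macrophage states, reached through interleukin 4 or through interferon gamma and bacterial products. In whole tumours, fewer cells of a type and less RNA per cell cannot be told apart.

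Values are the authors' log2 signals after RMA, a method that normalises arrays together and summarises the probes of a probe set, with 1 array per tumour, and a difference of 1 is a 2-fold change. Title numbers of the samples fall into 4 ranges, called title series here, whose meaning the labels do not give. The larger series (53 arrays) held Responder (17), NonResponder (14), control IgG (14), PBS (3), Relapse (3) and GrowthDelay (2) tumours. The smaller series (25 arrays) held Responder (10), NonResponder (9), Relapse (3) and Stabilization (3) tumours, and 8 control IgG and 4 PBS arrays lay in ranges of their own. Array medians ran from 5.71 to 5.9.

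In 4 arrays the mean correlation with the other arrays was below 0.94: Responder replicates 20 (0.904) and 21 (0.883), NonResponder replicate 14 (0.927) and Stabilization replicate 1 (0.913). They also had the 4 lowest means of 11 melanocyte genes, 6.63, 6.58, 8.07 and 6.79, against 8.56 to 10.2 elsewhere. Means of the B cell and lymph node list reached 9.44 in Responder replicate 20 and 9.13 in NonResponder replicate 14. The skeletal muscle list was highest in Responder replicate 21 (13.6) and stood at 11.9 in Stabilization replicate 2. The pigment enzyme gene Dct, a defining melanocyte marker, lay between 13.9 and 14.4 in the other 86 arrays, while Tyr, another pigment enzyme gene, lay between 3.04 and 4.09 in all 90.

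**Figure D1:**
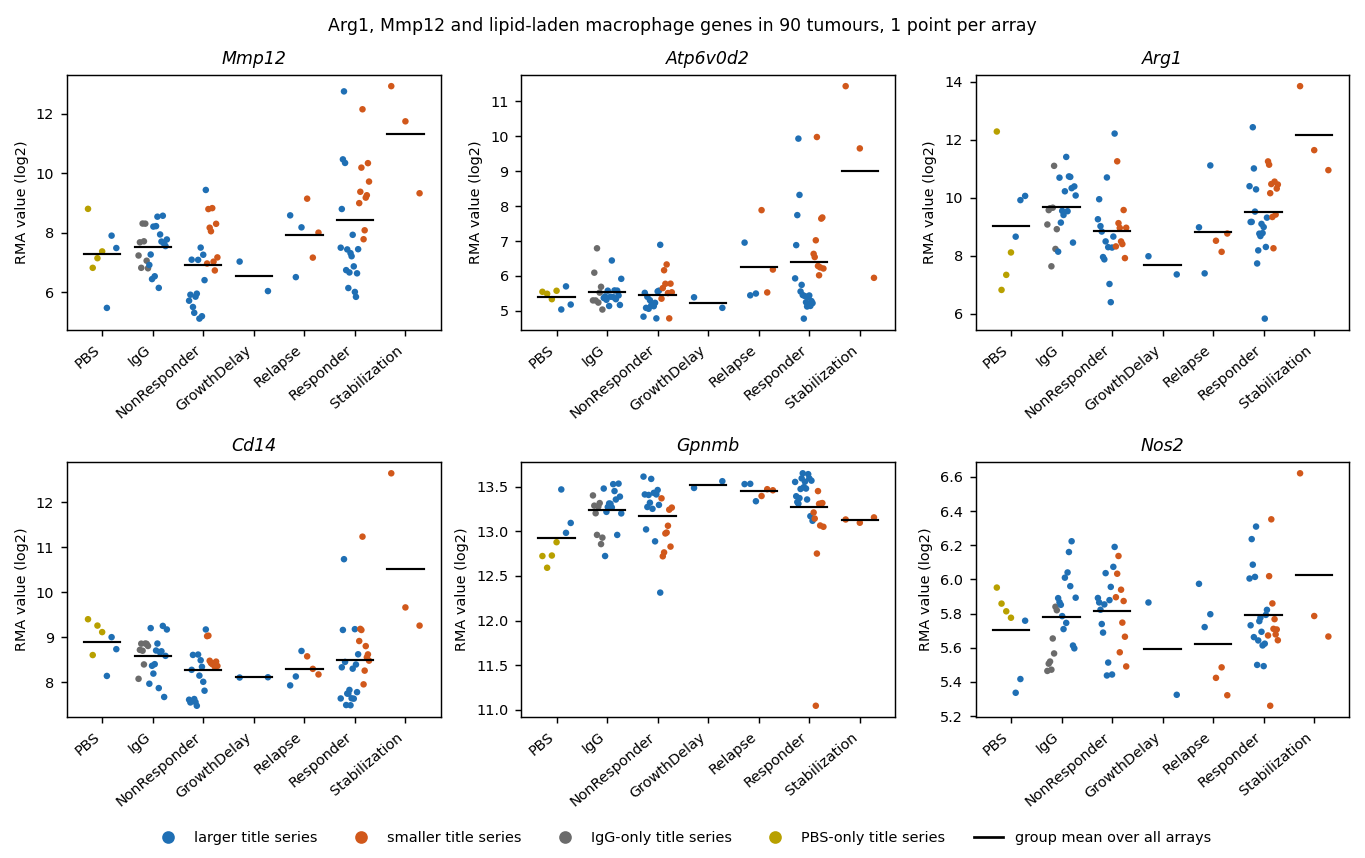
Log2 RMA value of each measured gene (vertical axes, which differ between panels) in the 7 treatment groups, 1 point per array, coloured by title series, with a black line at the group mean. The Stabilization tumours hold the highest single value of Mmp12 (12.9), Atp6v0d2 (11.4), Arg1 (13.9), Cd14 (12.6) and Nos2 (6.62), while Gpnmb stays between 13.1 and 13.2 in them.

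The 3 Stabilization tumours were high in Mmp12, Atp6v0d2, Arg1 and Cd14, but not to the same degree. They are set against NonResponder (9) and Responder (10) tumours of the smaller series throughout. Mmp12, the macrophage metalloelastase that cuts elastin, stood at 12.93, 11.74 and 9.32 in Stabilization replicates 1, 2 and 3. Within the smaller series, NonResponder tumours ran from 6.73 to 8.82 (median 8.04) and Responder tumours from 7.78 to 12.1 (median 9.31). All 3 Stabilization values lay above every NonResponder tumour of that series, and 1 lay above every Responder tumour. The mean was 3.55 above NonResponder tumours (11.7-fold), the largest difference of the 18193 genes, and 1.83 above Responder tumours (3.55-fold).

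Atp6v0d2 encodes a d subunit of the vacuolar proton pump that is rich in osteoclasts and some macrophages and is needed for fusion of osteoclast precursors. Its values were 11.44, 9.65 and 5.95, so that replicate 3 lay inside the NonResponder range of 4.79 to 6.33 (median 5.65). A second probe set of the gene gave the same order, 9.76, 7.91 and 4.93. The mean exceeded that of NonResponder tumours by 3.36 (10.3-fold) and that of Responder tumours by 1.99 (3.96-fold).

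Arg1 stood at 13.86, 11.65 and 10.95, against 7.92 to 11.3 (median 8.96) in NonResponder and 8.26 to 11.3 (median 10.4) in Responder tumours. Replicates 1 and 2 lay above all tumours of both groups in the smaller series, and replicate 3 lay above their medians. In the larger series NonResponder replicate 14 (12.2) and Responder replicate 4 (12.4) were above replicate 2. The differences of the means were 3.15 (8.88-fold) and 2.01 (4.04-fold).

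Cd14, the coreceptor that passes lipopolysaccharide to Toll-like receptor 4, stood at 12.65, 9.66 and 9.26, against 8.34 to 9.04 (median 8.43) in NonResponder tumours. Responder tumours ran from 7.95 to 11.2 (median 8.71). All 3 Stabilization tumours were above the NonResponder range, and the means differed by 1.97 (3.93-fold) and 1.61 (3.05-fold).

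Gpnmb and Nos2 were not part of this pattern. Gpnmb, a membrane glycoprotein of melanosomes and of lysosomes in lipid-laden macrophages, stood at 13.13, 13.10 and 13.16 and differed from the NonResponder mean by 0.10 and from the Responder mean by 0.16. Its second probe set read 8.13, 8.18 and 8.98, with a mean of 8.43 against 8.84 in NonResponder and 8.30 in Responder tumours, so the 2 probe sets differ in sign against NonResponder tumours. Nos2 stood at 6.62, 5.79 and 5.67, with differences of 0.21 and 0.26. In all, 4 of the 6 genes were over 2-fold higher in both comparisons, as were 6.39% of all genes against NonResponder and 0.786% against Responder tumours. Since these comparisons chose the genes, nothing is read from those shares. Replicate 1, one of the 4 arrays that stood apart, raised all 4 differences: without it Mmp12 exceeded NonResponder tumours by 2.76, Atp6v0d2 by 2.15, Arg1 by 2.30 and Cd14 by 0.91. Against Responder tumours the differences without it were 1.03, 0.77, 1.16 and 0.54, and 2 of 6 genes were over 2-fold higher.

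Marker lists of several cell types also differed between Stabilization and NonResponder tumours, and less so from Responder tumours. The mean of 12 macrophage markers was 11.6, 11.4 and 9.76 in replicates 1, 2 and 3, and 11 of the 12 were over 2-fold above NonResponder tumours. The mean of 7 neutrophil markers was 7.70, 6.67 and 7.19 and that of 7 fibroblast markers 13.3, 12.2 and 10.6. The mean of 7 T cell markers was 7.94, 9.37 and 6.57, and 6 of the 7 were over 2-fold above NonResponder tumours (median 1.57). Melanocyte markers were over 2-fold lower than in NonResponder tumours in 8 of 11 cases, with means of 6.79, 8.56 and 9.68. Against Responder tumours, 1 of 12 macrophage (median 0.35), 2 of 7 neutrophil and 1 of 7 fibroblast markers were over 2-fold higher. None of the T cell markers was (median -0.18), and 2 of 11 melanocyte markers were over 2-fold lower. The part of these lists in the levels of the 6 genes was not tested.

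Of the lists of related genes, the lipid-associated list had 11 of 21 genes over 2-fold above NonResponder tumours. Its median was 1.11 against -0.10 over all genes. The efflux transporter gene Abcg1 led it at 2.49. The elastin and matrix list had 6 of 11 (median 1.08, with the crosslinker gene Loxl1 at 2.52). The Toll-like receptor 4 response list, which also holds the T cell cytokine gene Ifng, had 8 of 18 (median 0.76, with the neutrophil attractant Cxcl2 at 2.98). The arginine and nitric oxide list had 1 of 14 higher, the arginine transporter gene Slc7a2 at 2.77, and 1 lower. None of the 16 other proton pump subunits was over 2-fold higher or lower, and Tcirg1, a subunit of the osteoclast pump, was the highest at 0.77. Against Responder tumours the same lists held 1 of 21, 2 of 11, 2 of 18, 1 of 14 and 0 of 16 genes over 2-fold higher.

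Responder against NonResponder compares shrinking with growing tumours under one antibody. Mmp12 and Atp6v0d2 rose in the shrinking tumours, and the other 4 genes did not pass the test. The tumours of both groups in the smaller series also entered the Stabilization comparisons that chose the genes. The p-values and ranks given here are therefore not independent of that choice. Of all 18193 genes 47% passed (limma, Benjamini-Hochberg adjusted p under 0.05 over all genes), 17.2% higher and 29.8% lower, so 2 of 6 genes is not a large share. With each array centred on its median, 2058 genes were higher and 9127 lower, in place of 3138 and 5414.

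Mmp12 in the larger series ran from 5.11 to 9.43 (median 5.93) in 14 NonResponder tumours and from 5.84 to 12.7 (median 7.31) in 17 Responder tumours. In the smaller series it ran from 6.73 to 8.82 and from 7.78 to 12.1. The groups overlapped in both series, with 3 of 17 and 8 of 10 Responder tumours above the highest NonResponder tumour. The difference was 1.52 ± 0.34 on the log2 scale (SE; 2.86-fold; adjusted p = 0.000819), the 18th largest of 18193. Within the larger series it was 1.39 and within the smaller one 1.73; fitted alone, the larger series lost the call (adjusted p = 0.0726) and the smaller one kept it (adjusted p = 0.0257).

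Mmp12 has 2 annotated starts in RefSeq (GRCm38.p6), and the 250 bases before each are shown beside those of Gpnmb because these genes varied in opposite directions between tumours. Promoter entries were at hand for 3 of the 7 genes. That of Cd14, which also had a negative r with Gpnmb (-0.38), is not shown, so the genes shown are a choice among the 3. Capitals mark matches, on either strand, to the AP-1 motif TGANTCA, the E-boxes CACGTG and CATGTG, and the PU.1 motif GAGGAAGT. The first window covers chr9:7344147-7344396 and the second chr9:7347124-7347373, both on the plus strand, and that of Gpnmb covers chr6:49036268-49036517 on the plus strand.
Mmp12, first start: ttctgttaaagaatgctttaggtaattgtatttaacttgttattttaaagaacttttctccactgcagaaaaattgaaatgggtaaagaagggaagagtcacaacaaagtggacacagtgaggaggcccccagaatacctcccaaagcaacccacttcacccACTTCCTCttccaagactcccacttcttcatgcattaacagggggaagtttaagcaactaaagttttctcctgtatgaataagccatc
Mmp12, second start: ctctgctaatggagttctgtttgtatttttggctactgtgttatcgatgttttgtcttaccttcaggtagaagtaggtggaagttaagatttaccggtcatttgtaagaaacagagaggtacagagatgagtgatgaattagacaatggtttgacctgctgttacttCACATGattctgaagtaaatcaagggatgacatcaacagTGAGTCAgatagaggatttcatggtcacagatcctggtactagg
Gpnmb: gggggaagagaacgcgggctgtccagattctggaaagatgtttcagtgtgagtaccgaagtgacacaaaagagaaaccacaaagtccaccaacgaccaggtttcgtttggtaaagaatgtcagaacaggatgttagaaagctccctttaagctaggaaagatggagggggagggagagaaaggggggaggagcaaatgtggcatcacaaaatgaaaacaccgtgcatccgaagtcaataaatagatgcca
The first Mmp12 window held ACTTCCTC, the PU.1 motif read on the other strand, at -88 to -81 from the start. The second held TGAGTCA at -44 to -38 and CACATG, the CATGTG box read on the other strand, at -83 to -78. The Gpnmb window held none of the 4 motifs. Of 32851 windows of 250 bases in the table, 6.75% held TGANTCA, 6.02% CACGTG, 12.3% CATGTG and 2.44% GAGGAAGT.

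Atp6v0d2 rose by 0.96 ± 0.27 (1.94-fold, adjusted p = 0.00433), from a NonResponder range of 4.79 to 6.89 (median 5.40) to a Responder range of 4.78 to 9.98 (median 6.02). The rise came from part of the tumours in the larger series, where Responder values had a median of 5.44 and a highest value of 9.93, and NonResponder values a median of 5.20. In the smaller series 6 of 10 Responder tumours were above every NonResponder tumour. The larger series gave 0.70 and the smaller one 1.37, and neither series fitted alone passed (adjusted p = 0.135 and 0.0696).

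Arg1 and Cd14 did not pass. Arg1 ran from 6.39 to 12.2 (median 8.66) in NonResponder and from 5.83 to 12.4 (median 9.34) in Responder tumours, a difference of 0.66 ± 0.36 with a 95% interval of -0.04 to 1.36 (adjusted p = 0.113). The larger series gave 0.37 and the smaller one 1.14. Cd14 differed by 0.23 ± 0.18 (interval -0.13 to 0.60, adjusted p = 0.284). Intervals of this width include an increase of Arg1 of over 2-fold as well as no change.

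Gpnmb and Nos2 had the narrowest ranges of the 6 genes over the 90 arrays. Gpnmb ran from 12.3 to 13.6 (median 13.3) in NonResponder and from 11.04 to 13.7 (median 13.4) in Responder tumours and differed by 0.09 ± 0.09 (adjusted p = 0.384). Without the 4 arrays that stood apart the difference was 0.15 and passed (adjusted p = 0.0215). Nos2 lay between 5.26 and 6.62 in all tumours and differed by -0.02 (interval -0.15 to 0.11, adjusted p = 0.785). The deposited table holds no detection calls, so whether Nos2 lay above background is not known here.

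None of the 6 differences was shown to depend on the title series: the interaction passed for 0 of 18193 genes in limma (0%; 2418 had a p under 0.05 before adjustment; 8 with array weights). Adjusted p was 0.843 for Mmp12 and 0.563 for Atp6v0d2.

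**Figure D2:**
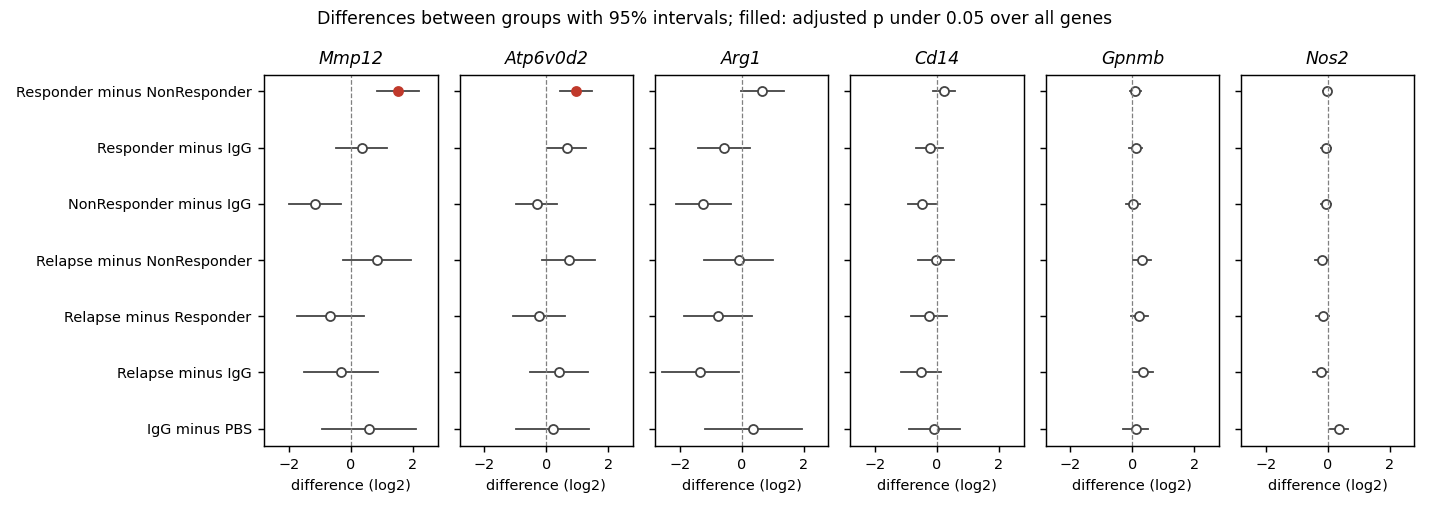
Difference on the log2 scale (horizontal axes, the same in all panels) of each gene in 7 comparisons, with 95% intervals, from 1 linear model over 90 arrays. Filled points passed an adjusted p of 0.05 over all genes: only Mmp12 (1.52) and Atp6v0d2 (0.96) in Responder minus NonResponder are filled.

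Lists of genes that work beside the 6 genes were counted in the same fit, without the 6 genes themselves. Genes of the lipid-associated list, not all of which handle lipid, rose in 16 of 21 measured cases and fell in 1. Their median was 0.47 against -0.06 over all genes. They took in the cholesterol exporters Abcg1 (1.30 ± 0.25, adjusted p = 0.000206) and Abca1 (1.21 ± 0.24, adjusted p = 0.000199), the protease Ctsb (0.39 ± 0.08, adjusted p = 0.00032) and the integrin chain Itgax (0.99 ± 0.22, adjusted p = 0.000635). The Toll-like receptor 4 response list, which also holds the T cell cytokine gene Ifng, rose in 13 of 18 cases. None was lower, and the median was 0.40. Acod1, which makes itaconate, rose by 1.53, the cytokine Ifng by 1.52, and the chemokines Ccl3 and Ccl4 by 1.33 and 0.76.

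Genes of macrophages activated by interleukin 4 or 13 rose in 6 of 13 cases, with none lower (median 0.38). Among them were the transglutaminase Tgm2 (1.44 ± 0.24, adjusted p = 5.17e-05), the receptor chain Il4ra (0.67), its signal carrier Stat6 (0.38) and the lectin Clec10a (0.95). Fusion and osteoclast genes rose in 4 of 10 cases: Acp5 (1.05), the regulator Nfatc1 (0.96), the receptor Cd200r1 (0.58) and the integrin chain Itgb3 (0.51). Receptor chains of osteopontin rose in 6 of 8 cases, such as Itga4 (0.61) and Itgb5 (0.52). The elastin and matrix list had 5 of 11 higher and 1 lower, with the elastase Ctss at 0.68, Emilin1 at 0.46 and Loxl1 at 1.15 among the rises, while Fbln5 fell by 0.40.

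The arginine and nitric oxide list and the proton pump list did not share these counts. In the first, 2 of 14 rose, Slc7a2 (0.94 ± 0.29, adjusted p = 0.00775) and the endothelial synthase Nos3 (0.22, adjusted p = 0.0471), with a median of -0.07. In the second, 1 of 16 rose, Tcirg1 (0.41 ± 0.09, adjusted p = 0.000945), and 4 fell, among them Atp6v1f by 0.22, Atp6v1e1 by 0.20 and Atp6v1c1 by 0.11. With each array centred on its median, 8 of 14 and 10 of 16 passed, near the 61.5% of all genes that passed in that setting. Counts in these lists therefore move with the scaling, as do those over all genes. Fitted in the larger series alone, 3.02% of all genes passed. The counts passing there were 0 of 21 for the lipid, 2 of 18 for the Toll-like receptor 4 and 1 of 13 for the interleukin 4 list. They were 0 for the fusion, osteopontin receptor, matrix, arginine and pump lists. The macrophage marker list rose in 12 of 12 cases (median 0.87), the fibroblast list in 7 of 7 (median 1.11), the T cell list in 6 of 7 (median 1.19) and the neutrophil list in 2 of 7 (median 0.29). The part of these cell types in the rises was not tested.

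Against control IgG, which shares its Responder and NonResponder arrays with the comparison above, none of the 6 genes passed in either group. For Responder against control IgG 37.3% of all genes passed, 2641 higher and 4150 lower (2012 and 6222 with centred arrays). Mmp12 in control IgG tumours ran from 6.14 to 8.57 (median 7.65), a narrower range than in Responder tumours, and differed by 0.35 (interval -0.47 to 1.17, adjusted p = 0.51). Atp6v0d2 differed by 0.65 ± 0.33 (adjusted p = 0.101), and in the larger series 4 of 17 Responder tumours stood above the highest control. Arg1 was -0.57 (interval -1.42 to 0.27, adjusted p = 0.281) and Cd14 -0.24 (adjusted p = 0.39). Directly within the larger series, the only one that holds both groups, the differences were 0.24, 0.53, -0.76 and -0.30.

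Against control IgG the lists were counted in the same way, and the difference from the counts against NonResponder tumours was not tested. The lipid list had 7 of 21 higher and 1 lower, the Toll-like receptor 4 list 8 of 18 higher and 1 lower, the interleukin 4 list 2 of 13 and 1, the fusion list 2 of 10 and 0, and the proton pump list 4 of 16 and 0. Abcg1 (1.26), Abca1 (1.03), Tgm2 (1.32) and Acp5 (1.11) were among the genes that passed here too, and Slc7a2 (0.53), Itgb3 (0.14) and Loxl1 (0.25) did not pass. Macrophage markers rose in 9 of 12 cases, T cell markers in 6 of 7 (median 1.10) and neutrophil markers in 1 of 7, with 1 lower. Fibroblast markers rose in 0 of 7 cases and monocyte markers in 0 of 4, and melanocyte markers fell in 5 of 11. Of all genes, 14.5% were called higher and 22.8% lower in this comparison. The part of these cell types in the differences was not tested.

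NonResponder against control IgG compares tumours that grew in spite of the antibody with controls. No gene passed in limma (0%; 838 had a p under 0.05 before adjustment; 22 with array weights). Arg1 and Mmp12 were the 9th and 13th lowest differences of 18193, at -1.23 ± 0.45 (interval -2.11 to -0.36, adjusted p = 0.99) and -1.17 ± 0.43 (interval -2.01 to -0.32, adjusted p = 0.99). In the larger series Arg1 ran from 8.14 to 11.4 (median 10.2) in control IgG tumours and from 6.39 to 12.2 (median 8.58) in NonResponder tumours. Every one of the 14 control IgG tumours there was above the NonResponder median of Mmp12, and 8 of 14 NonResponder tumours lay below the lowest control. With array weights, whose estimation stopped before its convergence tolerance, Mmp12 passed at -1.47 (adjusted p = 0.032). Cd14 was -0.47, Atp6v0d2 -0.31, Gpnmb 0.01 and Nos2 -0.04.

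Relapse tumours did not pass for any of the 6 genes in any comparison, with 6 arrays. Mmp12 stood at 8.58, 6.50 and 8.18 in replicates 1 to 3 of the larger series and at 9.14, 7.16 and 7.998 in replicates 4 to 6 of the smaller one. Arg1 stood at 8.98, 7.39, 11.1, 8.52, 8.13 and 8.77. Replicates 1 and 4 held the 2 highest values of Mmp12 and of Atp6v0d2 (6.96 and 7.89), and replicate 3 the highest of Arg1.

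Against Responder tumours no gene of 18193 passed in limma (0%; 803 had a p under 0.05 before adjustment; 5 with array weights), and Arg1 was the 14th lowest at -0.76 (interval -1.88 to 0.35). Against NonResponder tumours 20.3% of genes passed, 1533 higher and 2164 lower (797 and 6552 with centred arrays), and Mmp12 stood at 0.85 (interval -0.25 to 1.94, adjusted p = 0.231). Against control IgG 23.6% passed, 1916 higher and 2382 lower (1194 and 4917 with centred arrays), and Arg1 was the 5th lowest at -1.34 ± 0.64 (interval -2.58 to -0.09, adjusted p = 0.102). Without Relapse replicate 3, the tumour with the highest Arg1, it was -1.92 and passed (adjusted p = 0.0364). Gpnmb was higher by 0.32 than in NonResponder and by 0.34 than in control IgG tumours without passing (adjusted p = 0.089 and 0.106). It passed in both without the 4 arrays that stood apart (adjusted p = 0.0163 and 0.021).

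Control IgG against PBS gave 1 gene of 18193 (0.0055%) and none of the 6. Arg1 ran from 6.82 to 12.3 in the 7 PBS tumours. In the 2 GrowthDelay tumours Mmp12 stood at 7.02 and 6.03, Arg1 at 7.98 and 7.35 and Cd14 at 8.10 and 8.11. Over all title series the group had the lowest mean of each of Mmp12, Atp6v0d2, Arg1, Cd14 and Nos2. Both tumours lay in the larger series, where the GrowthDelay mean was the lowest only for Atp6v0d2 and Arg1 among these genes. In that series the NonResponder mean was lower for Mmp12 and Cd14, and the PBS mean for Nos2. In the order of the 7 group means over all title series, no neighbours lay further apart than the larger of their SDs except Stabilization above the next group. This held in Mmp12 (11.3 ± 1.84, SD, n = 3, above Responder at 8.41 ± 1.83, n = 27) and in Arg1 (12.2 ± 1.52 above control IgG at 9.67 ± 1.004, n = 22). Within the smaller series the Mmp12 mean exceeded that of Responder tumours by 1.83, less than the Stabilization SD of 1.84. That series held no control IgG tumours. Since the genes were chosen by their Stabilization values, these gaps are a description.

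Within groups, Mmp12, Atp6v0d2, Arg1 and Cd14 varied together from tumour to tumour. Correlations were computed over 90 arrays after the mean of each group in each title series had been removed, with 100000 permutations within those strata and adjustment over 15 pairs of genes. The 6 pairs of these 4 genes had r from 0.41 to 0.82, with adjusted p of at most 0.0006. The Stabilization tumours that chose the leading genes are among these arrays. Values of r and p, here and with the marker lists below, are therefore not independent of that choice. In the larger series, which holds no Stabilization tumours, r of the 6 pairs ran from 0.49 to 0.86. Their adjusted permutation p there was at most 0.00176. Mmp12 and Atp6v0d2 had r = 0.82 (rho = 0.73; permutation p = 1e-05, the smallest they can give; adjusted 5e-05) and r = 0.76 without the 2 arrays farthest from the median of Mmp12. The pair had r above 0 in all 6 sets of at least 6 arrays of 1 group in 1 title series, from 0.57 to 0.95. It was 0.86 in the larger and 0.87 in the smaller series.

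Mmp12 and Arg1 had r = 0.61 (rho = 0.52, permutation p = 1e-05, adjusted 5e-05) and 0.18 to 0.76 within the 6 sets, and Mmp12 and Cd14 had r = 0.65 (rho = 0.51, permutation p = 1e-05, adjusted 5e-05) and -0.01 to 0.87. Arg1 and Atp6v0d2 were the loosest pair (r = 0.41, rho = 0.24, permutation p = 0.00024, adjusted 0.0006), with r from -0.48 to 0.72 within the 6 sets. In the smaller series alone none of the 3 pairs with Arg1 passed: r was 0.49 with Mmp12 (permutation test, adjusted p = 0.0873), 0.56 with Cd14 (adjusted p = 0.0564) and 0.34 with Atp6v0d2 (adjusted p = 0.266). Some of the tumours that led did so in several genes. Responder replicate 4 ranked 2 of 90 in Mmp12 (12.7) and Arg1 (12.4) and 3 in Atp6v0d2 (9.93) and Cd14 (10.7), and it was not one of the arrays that stood apart. Responder replicate 21 ranked 3 in Mmp12 and 2 in Atp6v0d2 and Cd14, but 19 in Arg1, and PBS replicate 4 ranked 3 in Arg1 but 18 in Mmp12. Nos2 had r of 0.32 to 0.40 with these 4 genes (adjusted p at most 0.0079), and 0.15 to 0.27 without the 4 arrays that stood apart.

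**Figure D3:**
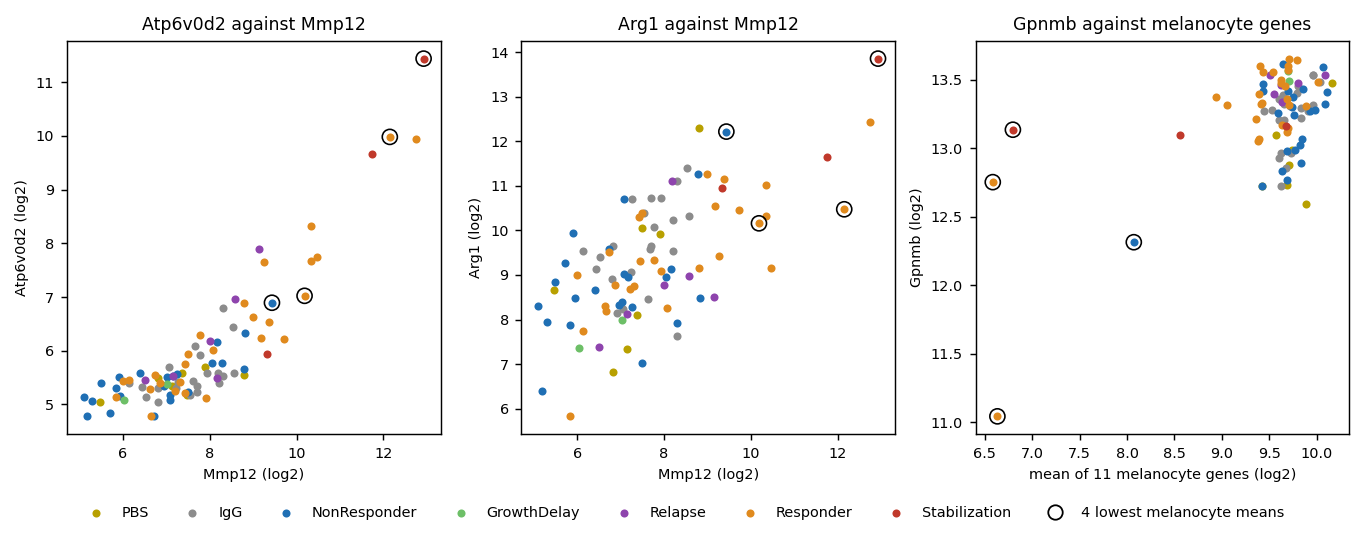
Each point is 1 of 90 arrays, coloured by treatment group, with log2 values on both axes: Atp6v0d2 against Mmp12, Arg1 against Mmp12, and Gpnmb against the mean of 11 melanocyte genes. Rings mark the 4 arrays with the lowest melanocyte means (6.58 to 8.07), which include Stabilization replicate 1 at the top of Mmp12 (12.9) and the lowest Gpnmb values (11.04 and 12.3).

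Gpnmb, although named with lipid-laden macrophages, had a positive r with the melanocyte list over the 90 arrays and a negative one with the macrophage list. Both were closer to no correlation without the 4 arrays that stood apart. Its r with Mmp12 was -0.38 (rho = -0.49, permutation p = 0.00041, adjusted 0.000879; -0.33 without the 2 farthest arrays; -0.84 to 0.24 within the 6 sets) and with Cd14 -0.38 (rho = -0.56, permutation p = 0.00847, adjusted 0.0106). With the mean of 11 melanocyte genes its r was 0.64 (rho = 0.49, permutation p = 3e-05, adjusted 6e-05 over 36 pairs of gene and list), and 0.24 to 0.80 within the 6 sets. Without the 4 arrays that stood apart it was 0.28. With the mean of 12 macrophage markers it was -0.22 (rho = -0.12, permutation p = 0.0358, adjusted 0.0416) and 0.00 without those arrays. Among single melanocyte genes, r with Gpnmb without those arrays was 0.73 for Tyrp1, 0.71 for Dct and 0.69 for the lineage regulator Sox10, but -0.26 for Mlana and Trpm1. The median over the 11 genes was 0.20, with 9 above 0. Over the 12 macrophage markers the median was 0.05, with 7 above 0. The second probe set of Gpnmb had r = 0.85 with the first (0.56 without the 4 arrays), and that of Atp6v0d2 0.96.

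Mmp12, Atp6v0d2, Arg1 and Cd14 went with several cell type lists at once. Arg1 had its highest r with the neutrophil list (0.69; rho = 0.68; permutation p = 1e-05, adjusted 2.77e-05), followed by monocyte (0.63) and macrophage markers (0.59). Mmp12 had r = 0.66 with neutrophil (rho = 0.58), 0.63 with fibroblast (rho = 0.50) and 0.59 with macrophage markers (rho = 0.46). Atp6v0d2 had r = 0.66 with macrophage markers (rho = 0.51) and 0.62 with fibroblast markers (rho = 0.49). Cd14 had r = 0.61 with neutrophil markers (rho = 0.61, 0.53 to 0.73 within the 6 sets), but 0.36 with macrophage markers (rho = 0.11, 0.21 without the 4 arrays). All 4 had negative r with the melanocyte list, from -0.65 for Cd14 to -0.40 for Arg1. The adjusted permutation p of each of these pairs was at most 0.00628. Of the 36 pairs of gene and list, 32 had an adjusted p under 0.05 for r. No share over all genes is given beside this count, so nothing particular to the 6 genes is read from it.

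**Figure D4:**
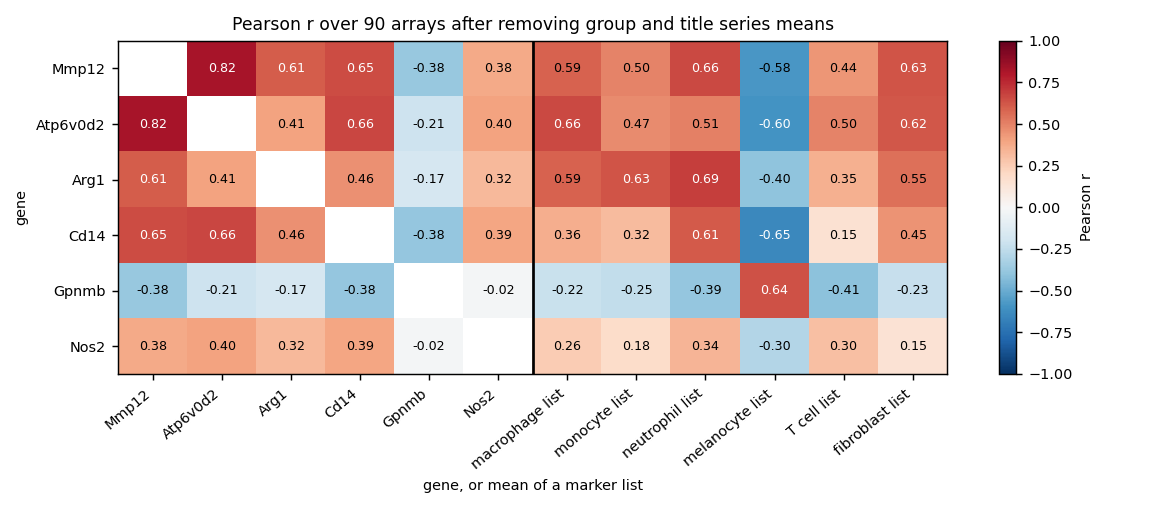
Pearson r over 90 arrays, after removal of the mean of each group in each title series, between the 6 genes (rows) and the same genes or the means of 6 marker lists (columns), on a colour scale from -1 to 1. Mmp12 and Atp6v0d2 form the highest pair of genes (0.82), and in the melanocyte column Gpnmb (0.64) has the opposite sign to the other 5 genes.

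The genes most like each of the 6, by the same r over 90 arrays among all genes measured, differed from gene to gene. Mmp12 was nearest to the collagenase gene Mmp13 (0.80), Mamdc2 (0.80) and Lgi2 (0.80). Atp6v0d2 was nearest to the coagulation factor gene F7 (0.88), Mamdc2 (0.87) and the matrix protease gene Adamts15 (0.86). Arg1 was nearest to the myeloid lectin gene Clec4d (0.86), the neutrophil attractant Cxcl2 (0.83) and the platelet factor gene Pf4 (0.81). Cd14 was nearest to the gap junction gene Gja1 (0.80), the prostacyclin synthase gene Ptgis (0.80) and Gadd45a (0.80). Gpnmb was nearest to the Wnt receptor gene Fzd7 (0.86), Dzip1l (0.85) and Kctd15 (0.85), and without the 4 arrays that stood apart these ranked 212th, 138th and 541st. Nos2 had no neighbour above 0.66 (Cadm3).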

How the data were processed

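RNA of 90 tumours was hybridised to Affymetrix mouse arrays after amplification of 800 ng, per the labels' protocols. The authors deposited log2 values normalised with RMA, with limma also named, per the submitters' processing notes; versions, and which arrays were normalised together, are not given in the sources used here. Of 45101 probe sets 64 controls were left out, 34945 had 1 gene symbol, 932 several and 9160 were not listed. Each of 18193 genes was represented by its probe set with the highest mean (a choice for 9010 genes).

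With lmFit and eBayes of limma 3.58.1 (R 4.3.3), a linear model of all 90 arrays was fitted to each gene, with group and title series as fixed terms, two-sided, with Benjamini-Hochberg adjustment over all genes and 95% intervals of 1.96 SE. The threshold was an adjusted p of 0.05. Comparisons share arrays. Comparisons with Stabilization are differences of means within the smaller series. The difference of Responder or NonResponder tumours from control IgG borrows from the smaller series through the shared terms, so direct values are given. Correlations used numpy 2.4.6 with permutation within group and title series. Precision is set by the number of arrays, since arrays have no depth. The fit was first tested on simulated data, in which 200 genes had been changed.

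The 7 genes, the 8 lists of related genes (117 genes, 111 measured) and the 10 marker lists were chosen with earlier results of these data known. All measured genes of the 7 are named, with up to 4 genes of smallest p per list and the 3 most alike genes. Alternatives were the title series term, array centring, quantile normalisation, a mean log2 of at least 6, the mean of probe sets, array weights, each title series alone and leaving out arrays. The set of 4 arrays was chosen after seeing the data. The estimation of array weights stopped before its convergence tolerance, so results with array weights are given only as an alternative.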

Additional observations from a re-analysis of the deposited data

Results flagged for a closer look

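Of 36 sets of 4 to 10 arrays tested for the 6 genes (a group within a title series, or all PBS or all Relapse arrays), 4 held a highest or lowest value whose gap to the nearest other array, divided by the group's range, exceeded Dixon's 95% critical value; chance gives about 1 in 20. All 4 lay in the smaller title series. No group of the larger title series held 4 to 10 arrays, so none of them was tested by itself. Atp6v0d2 was 9.98 in Responder replicate 21, with the next tumour at 7.68. Cd14 was 11.2 in the same tumour, with the next at 9.19. Gpnmb was 11.04 in Responder replicate 20, with the next lowest at 12.8. Both tumours are among the 4 arrays that stood apart. Arg1 was 11.3 in NonResponder replicate 16, with the next at 9.58, and that array did not stand apart.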

How the results depend on the processing

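Values are log2 differences, and no gene whose sign turned passed the test under the setting that turned it. Counts of the 6 genes that passed moved as follows, with the share of all genes that passed in the same setting in brackets. The cause was not tested unless the setting tests fewer genes or arrays. Responder against NonResponder went from 2 to 1 among genes with a mean log2 of at least 6 (48.3%, and 4 of the 6 genes were tested there). It went to 4 with array weights (60.4%) and 3 without the 4 arrays (49.3%, with Gpnmb). In the larger title series alone it was 0 (3.02%) and in the smaller one 1 (19.1%). Responder against control IgG went from 0 to 1 without the title series term (34.2%), 2 with array weights (61.6%) and 1 without the 4 arrays (39.9%). NonResponder against control IgG and control IgG against PBS went from 0 to 1 with array weights (0.121% and 12.5%). Relapse against NonResponder and against control IgG each went from 0 to 1 with centred arrays, 3 with array weights and 1 without the 4 arrays, and the latter gave 0 to 1 when single arrays were left out. Stabilization over Responder gave 2 to 4 genes over 2-fold higher when single arrays were left out. In the smaller series alone 4 of 15 pairs of genes and 18 of 36 pairs of gene and list had an adjusted p under 0.05, in place of 12 and 32. The 4 were the 3 pairs among Mmp12, Atp6v0d2 and Cd14, and Cd14 with Nos2. No share over all genes is given beside these counts of pairs.

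Signs turned as follows. With array weights: Mmp12 -0.14 (Responder against control IgG), Atp6v0d2 0.15 and Cd14 0.0354 (Relapse against Responder), Arg1 0.0412 and Cd14 0.058 (Relapse against NonResponder), Arg1 -0.15 (control IgG against PBS), and Gpnmb -0.0829 and Mmp12 0.0805 (larger minus smaller series). In the larger series alone: Gpnmb -0.0221 (NonResponder against control IgG), Arg1 0.00579, Cd14 0.0051 and Nos2 0.0213 (Relapse against Responder), Arg1 0.38, Cd14 0.159 and Nos2 0.0169 (Relapse against NonResponder), and Mmp12 0.23 (Relapse against control IgG). In Responder against NonResponder: Gpnmb -0.00826 as the mean of its probe sets and -0.0586 in the smaller series alone, and Nos2 0.000435 after quantile normalisation. Without the title series term: Nos2 0.0122 (Responder against control IgG), Gpnmb -0.0682 and Nos2 0.0337 (NonResponder against control IgG), Cd14 0.0284 (Relapse against NonResponder), and Mmp12 0.415 (Relapse against control IgG). Without the 4 arrays: Arg1 0.0519 and Cd14 0.0329 (Relapse against NonResponder), and Cd14 0.19, Gpnmb -0.0953 and Mmp12 0.32 (larger minus smaller series). With single arrays left out, Relapse against NonResponder ranged from -0.64 to 0.15 for Arg1 and from -0.17 to 0.0491 for Cd14.

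No paired analysis was possible because the replicate numbers only name the arrays and the labels tie none of them to the same animal or batch. The number of arrays, 6 or fewer in Relapse, GrowthDelay and Stabilization, limits the precision there, and no signal over background is given with the deposited values.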
